A study of Mus musculus with 16 samples.

Results

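The interferon regulatory factors (IRFs) described here are the 6 genes Irf1, Irf2, Irf3, Irf4, Irf5 and Irf8, chosen by gene name from the 54532 genes of each expression table. RNA was sequenced in bulk from mouse pulmonary endothelial cells (ECs), taken as CD31+ CD45- cells with magnetic beads 24 h after an intratracheal injection. In the first experiment, wild-type C57/BL6J males of 8 weeks received saline (n = 4) or lipopolysaccharide (LPS, the outer membrane component of Gram-negative bacteria) at 10 mg/kg (n = 6). In the second experiment, both groups received LPS at 2 mg/kg, a dose lowered so that the mice survived. One group was Fgfr1 iΔEC/iΔEC (n = 3), in which the tamoxifen-inducible VE-cadherin-CreERT2 transgene deletes the floxed alleles of the FGF receptor Fgfr1 in ECs. The other group was Fgfr1 loxP/loxP (n = 3), which carried the same floxed alleles without the Cre, and tamoxifen was given to both genotypes. The second experiment had no saline group, and its mice were adults whose age in weeks is not given in the sources used here. Recovered reads on genes ranged from 13478726 to 18807007 in saline, from 17840221 to 19043015 in LPS, from 15969575 to 17002788 in loxP/loxP and from 16642177 to 16943522 in iΔEC/iΔEC libraries. Levels are in FPKM (fragments per kilobase of gene model, scaled to library size), so they are per length and can be compared between genes. Each sample is taken as a separate animal only as far as its label says, and p-values measure the spread between these samples.

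IRFs are transcription factors that share an N-terminal DNA-binding domain and read interferon-stimulated response elements in the promoters of interferon and antiviral genes. IRF3 and IRF5 lie dormant in the cytoplasm until Toll-like or nucleic-acid receptors activate them, IRF1 is induced by interferon-γ, and IRF2 binds many of the same sites and often restrains IRF1. IRF4 and IRF8 act mainly in blood cells, where they pair with PU.1 and AP-1 factors in lymphocytes, dendritic cells and macrophages. In ECs, IRF1 is best known for inducing adhesion molecules and antigen-presentation genes after cytokine exposure.

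The labels were checked against marker genes before the results. Pecam1, which encodes CD31, stood at 400.3 ± 81.5 FPKM (SD, n = 4) in saline and 357.7 ± 76.8 FPKM (SD, n = 6) in LPS, and Cdh5, which encodes VE-cadherin, at 709.6 ± 56.0 and 394.1 ± 97.6 FPKM. No endothelial marker was at 0 in any library. Ptprc, which encodes the CD45 used for depletion, was present in every library and was 6.97 ± 3.13 FPKM in saline, 34.6 ± 11.4 in LPS, 18.0 in loxP/loxP and 15.3 in iΔEC/iΔEC on average. Leukocyte RNA was therefore measured in all 4 groups, most of all in LPS. Fgfr1 was 2.80 ± 0.181 FPKM in loxP/loxP and 1.08 ± 0.368 in iΔEC/iΔEC (SD, n = 3 each), a log2 difference of -0.88 that left the groups apart, in the direction of the labels, and did not pass across all genes (limma adjusted p = 0.962). In these bulk libraries, fewer cells of a type and less RNA per cell cannot be told apart.

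The upstream sequences of the 3 members that passed the test after LPS are shown first, because Irf1, Irf5 and Irf8 differ in which inducible motifs lie next to their starts. Each is the 250 bases before the most upstream RefSeq transcript start on the plus strand of GRCm38.p6, and a motif match is in capitals.
Irf1, chr11:53769764-53770013: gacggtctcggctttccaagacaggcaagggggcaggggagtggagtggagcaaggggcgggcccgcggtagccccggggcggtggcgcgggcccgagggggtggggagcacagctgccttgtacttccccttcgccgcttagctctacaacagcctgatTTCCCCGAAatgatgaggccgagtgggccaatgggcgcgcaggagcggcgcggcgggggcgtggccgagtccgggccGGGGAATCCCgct
Irf5, chr6:29526375-29526624: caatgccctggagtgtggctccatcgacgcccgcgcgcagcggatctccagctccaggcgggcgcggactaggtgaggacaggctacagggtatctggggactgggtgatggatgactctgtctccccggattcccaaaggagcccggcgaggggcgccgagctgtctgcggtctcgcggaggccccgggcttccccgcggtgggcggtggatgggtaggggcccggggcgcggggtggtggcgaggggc
Irf8, chr8:120736108-120736357: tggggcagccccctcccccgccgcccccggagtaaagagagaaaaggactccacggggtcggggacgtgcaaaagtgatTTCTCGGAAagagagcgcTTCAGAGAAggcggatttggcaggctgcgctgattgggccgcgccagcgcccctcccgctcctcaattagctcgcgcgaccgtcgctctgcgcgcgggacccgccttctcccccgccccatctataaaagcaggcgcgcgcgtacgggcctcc

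Motifs were searched on both strands as the interferon-stimulated response element (ISRE, GAAANNGAAA), the gamma-activated site (GAS, TTCNNNGAA) and the NF-κB consensus. Irf1 held a GAS that began at position -90 and an NF-κB match that began at -13, counted from the start. Irf8 held a pair of GAS matches, at -171 and -153. RefSeq lists a later start for Irf1 and for Irf8 as well, and the windows before those starts, like the Irf5 window, held none of the 3 motifs. Among the members not printed, Irf2 held an ISRE at -241, a GAS at -224 and an NF-κB match at -17, and the Irf3 and Irf4 windows held none. No printed match overlapped another. Of 32851 mouse promoter windows of this length, 2.98% held the ISRE, 7.02% the GAS and 7.25% the NF-κB consensus. A match describes letters in the window and shows no binding.

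All 6 genes are protein-coding and lie on the plus strand, with GRCm38 coordinates taken from the deposited tables. Irf1 is at chr11:53770014-53778374, Irf2 at chr8:46739732-46847458, Irf3 at chr7:44997648-45002848, Irf4 at chr13:30749226-30766976, Irf5 at chr6:29526625-29541871 and Irf8 at chr8:120736358-120756694. Irf1 overlaps the antisense gene Gm17334, Irf3 overlaps Bcl2l12 and Irf5 overlaps Tnpo3, each on the minus strand. Irf2 overlaps the minus-strand genes Gm45479, Gm31172 and Gm45481, none above 27 reads in any library, and Irf8 lies inside the plus-strand gene Gm20388, which had 0 reads in every library. The strand setting of the read counting and its handling of reads that overlap several genes are not given in the sources used here. Reads from the overlaps could therefore have gone to either gene or to neither. Tnpo3, a nuclear import receptor, was 3.98 ± 0.288 FPKM in saline and 4.67 ± 0.849 in LPS, and its difference did not pass (limma adjusted p = 0.301).

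LPS at 10 mg/kg was accompanied by higher Irf5 and Irf8 and slightly lower Irf1, whose direction turned under scaling on the endothelial marker list, while Irf2, Irf3 and Irf4 did not pass the test. Of the 6 members, 2 were higher and 1 was lower by limma, with a limit of 0.05 on the p adjusted over all genes (Benjamini-Hochberg). Of the 14893 genes tested, 29.5% were higher and 23.7% lower, so these counts were close to the share over all genes. Of all calls, 55.5% were higher, against 88.7% under scaling on the endothelial list (where 4 members were higher and 0 lower), 42.9% with total reads and 45.4% with quantiles. With a log2 difference of at least 1 also asked for, Irf5 and Irf8 passed as higher, against 11.9% of all genes passing as higher. The groups did not overlap for 2 of 6 members, against 39.4% of all genes in either direction. The median difference over all genes was 0.0133 on the log2(FPKM + 1) scale used for every difference below.

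**Figure D1:**
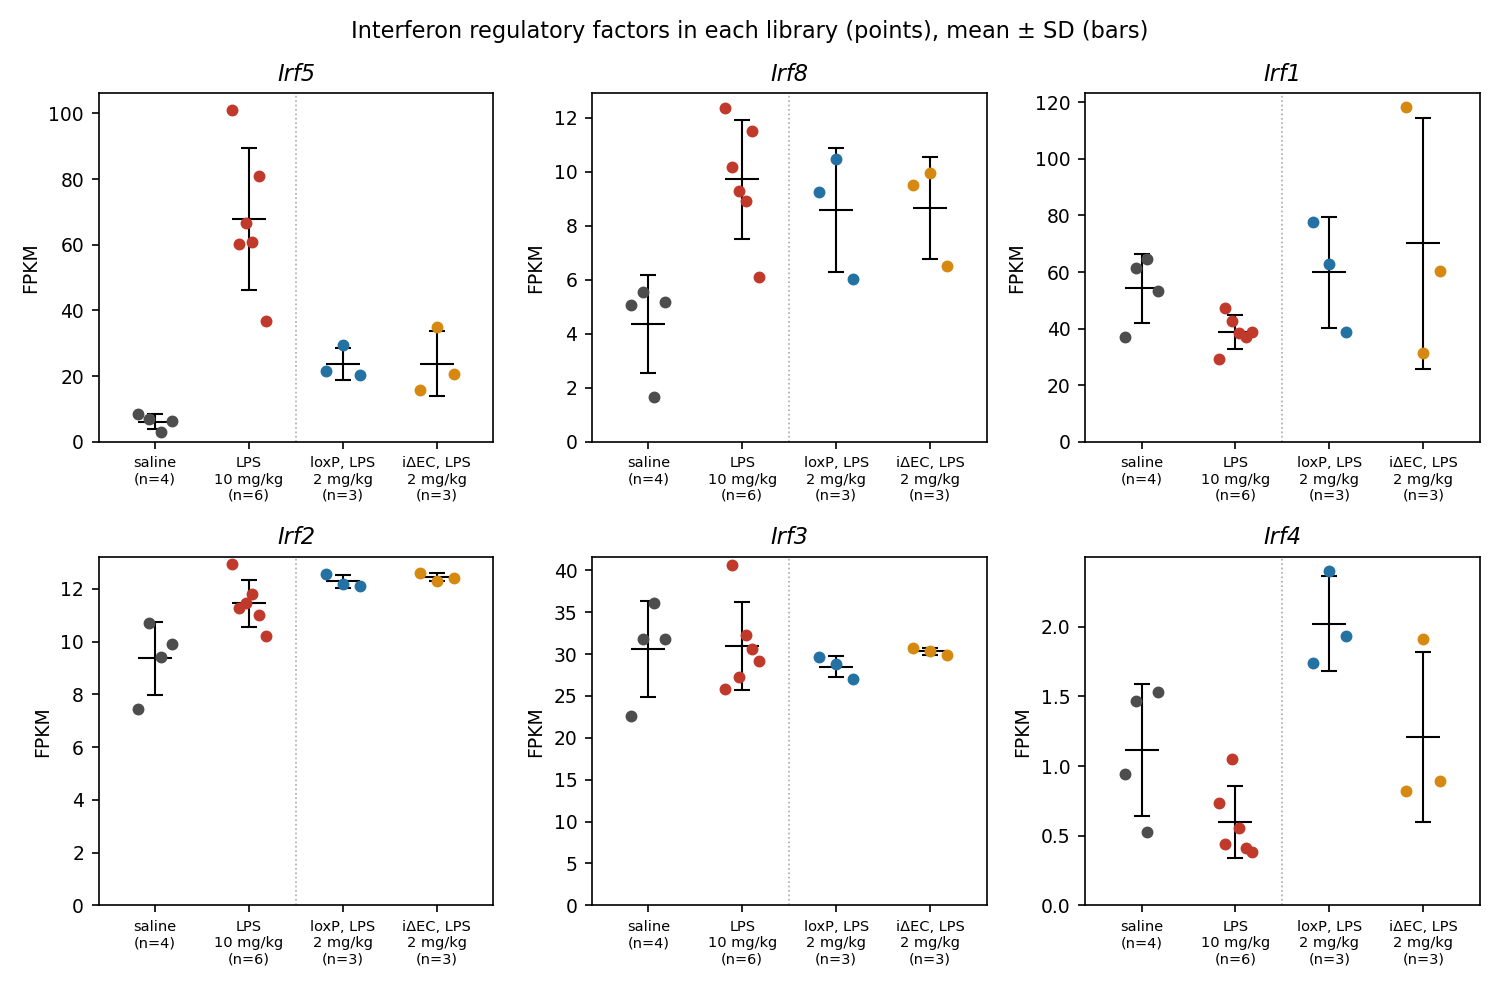
Level in FPKM of each of the 6 genes in every library (points), with the mean and SD of each group (bars), in the 4 groups, where the dotted line parts the separately normalized experiments. All 6 LPS libraries lie above all 4 saline libraries for Irf5 and Irf8, and the second experiment's genotypes overlap for every gene except Irf3.

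Irf5, which acts downstream of MyD88 and drives inflammatory cytokine genes in myeloid cells, was 8.56, 6.97, 2.89 and 6.33 FPKM in saline libraries 1 to 4. In the 6 LPS libraries it ranged from 36.9 to 101.1 FPKM with a median of 63.8. The lowest LPS library was thus above every saline library. The mean rose from 6.19 ± 2.39 to 67.8 ± 21.7 FPKM (SD, n = 4 and 6), a 10.96-fold difference of means. The log2 difference was 3.27 (SE 0.29, 95% interval 2.63 to 3.91, limma adjusted p = 8.89e-06), and the two-sided exact permutation p was 0.00476, the smallest that 4 against 6 libraries allow. Irf5 received 150 to 448 reads in the saline and 2040 to 5409 reads in the LPS libraries.

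Irf8, a lineage factor of monocytes, dendritic cells and B cells, was 5.07, 5.53, 1.67 and 5.19 FPKM in saline libraries 1 to 4. In LPS it ranged from 6.09 to 12.4 FPKM with a median of 9.74. The groups did not overlap, although LPS library 6 stood only slightly above saline library 2, and saline library 3 stood far below the other saline libraries. The mean rose 2.23-fold, from 4.36 ± 1.80 to 9.72 ± 2.20 FPKM (SD, n = 4 and 6), with a log2 difference of 1.05 (SE 0.26, limma adjusted p = 0.00566, exact permutation p = 0.00476). Without saline library 3 the log2 difference was 0.74 and still passed.

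Irf1, the interferon-γ-induced activator, was the highest of the 6 genes in saline, at 37.1, 61.6, 64.7 and 53.4 FPKM in libraries 1 to 4. In LPS it ranged from 29.4 to 47.2 FPKM with a median of 38.6. Saline library 1 lay inside the LPS range, so the groups overlapped, and 2 of 6 LPS libraries were below all saline libraries. The mean was 54.2 ± 12.3 FPKM in saline and 38.9 ± 5.94 in LPS (SD, n = 4 and 6), and the log2 difference of -0.45 (SE 0.17) passed narrowly (limma adjusted p = 0.0470, exact permutation p = 0.0476). The call held without saline library 1 (log2 difference -0.62) or LPS library 2 and was lost without any 1 of the other 8 libraries, with adjusted p-values from 0.00493 to 0.134 over the 10 limma fits. Scaling on the endothelial marker list, which moved the median of all genes to 0.53, turned the difference to 0.22 (-0.32 relative to that median). With quantiles the difference was larger, at -0.96 (limma adjusted p = 0.00255; -0.88 relative to the median of all genes). The antisense gene Gm17334, which overlaps Irf1, fell from 4.50 ± 1.55 to 1.24 ± 0.425 FPKM over the same libraries, and its part in the Irf1 value was not tested.

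Irf2, the factor that competes with IRF1, was 7.44, 10.7, 9.43 and 9.89 FPKM in saline and ranged from 10.2 to 12.9 FPKM in LPS, with a median of 11.4. In 5 of 6 LPS libraries it was above all saline libraries. The log2 difference of 0.27 (SE 0.11) did not pass across all genes (limma adjusted p = 0.0596), while the exact permutation p for this gene alone was 0.00952. It passed in limma without saline library 2 (adjusted p = 0.0487) or LPS library 6 (adjusted p = 0.0463), and under scaling on the endothelial list (0.89, adjusted p = 0.0108; 0.36 relative to the median of all genes). The difference was smaller with total reads (0.09, limma adjusted p = 0.619), with quantiles (0.10, limma adjusted p = 0.52) and without saline library 1 (0.18).

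Irf3, the factor behind the TRIF-dependent type I interferon response, was 22.6, 31.8, 36.1 and 31.9 FPKM in saline and ranged from 25.8 to 40.7 FPKM in LPS, with a median of 29.9. The ranges overlapped widely. Its log2 difference was 0.02 (95% interval -0.32 to 0.37, limma adjusted p = 0.919), and the sign changed with the scaling. IRF3 is activated by phosphorylation, which RNA levels do not show.

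Irf4, a factor of B cells, plasma cells and T cells, was the least abundant member, at 0.94, 1.47, 0.53 and 1.53 FPKM in saline libraries 1 to 4. In LPS it ranged from 0.385 to 1.05 FPKM with a median of 0.498. The log2 difference of -0.39 (SE 0.18) did not pass (limma adjusted p = 0.0797, exact permutation p = 0.0619). It passed in limma without saline library 3 (adjusted p = 0.0211) or LPS library 3 (adjusted p = 0.0427), and with total reads (-0.49, adjusted p = 0.0494). The difference was -0.08 under scaling on the endothelial list (-0.61 relative to the median of all genes) and -0.91 with limma-voom, and passed in neither. Only 35 to 159 reads per library fell on Irf4 in this experiment.

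**Figure D2:**
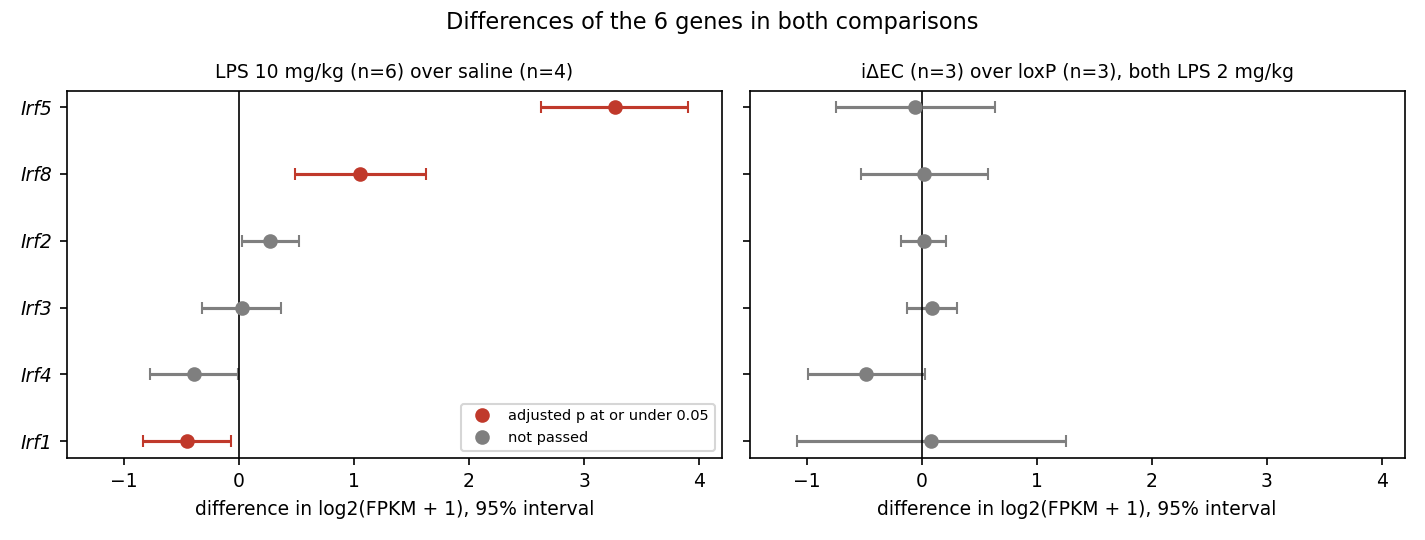
Difference in log2(FPKM + 1) of each gene (points) with its unadjusted 95% interval (bars), for LPS over saline on the left and iΔEC/iΔEC over loxP/loxP on the right, with genes that passed the limit of 0.05 in red. Irf5 at 3.27 and Irf8 at 1.05 stand to the right of 0 after LPS, Irf1 at -0.45 stands to the left (0.22 under scaling on the endothelial list), and no gene passes between the genotypes.

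The balance within the family changed with Irf5. Irf1 made up 50.8 ± 4.51% of the summed FPKM of the 6 genes in saline and 24.9 ± 5.47% in LPS (SD, n = 4 and 6). Irf5 made up 6.18 ± 3.27% in saline and 41.7 ± 8.86% in LPS. The log2 ratio of Irf5 to Irf1 ranged from -4.48 to -2.12 in saline and from -0.07 to 1.78 in LPS, without overlap. Irf1 was therefore the most abundant member in every saline library, and Irf5 exceeded it in 5 of 6 LPS libraries. The log2 ratio of Irf1 to its competitor Irf2 was 2.32 to 2.78 in saline and 1.18 to 2.06 in LPS. These ratios were picked after the values were seen and are given with no test.

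**Figure D3:**
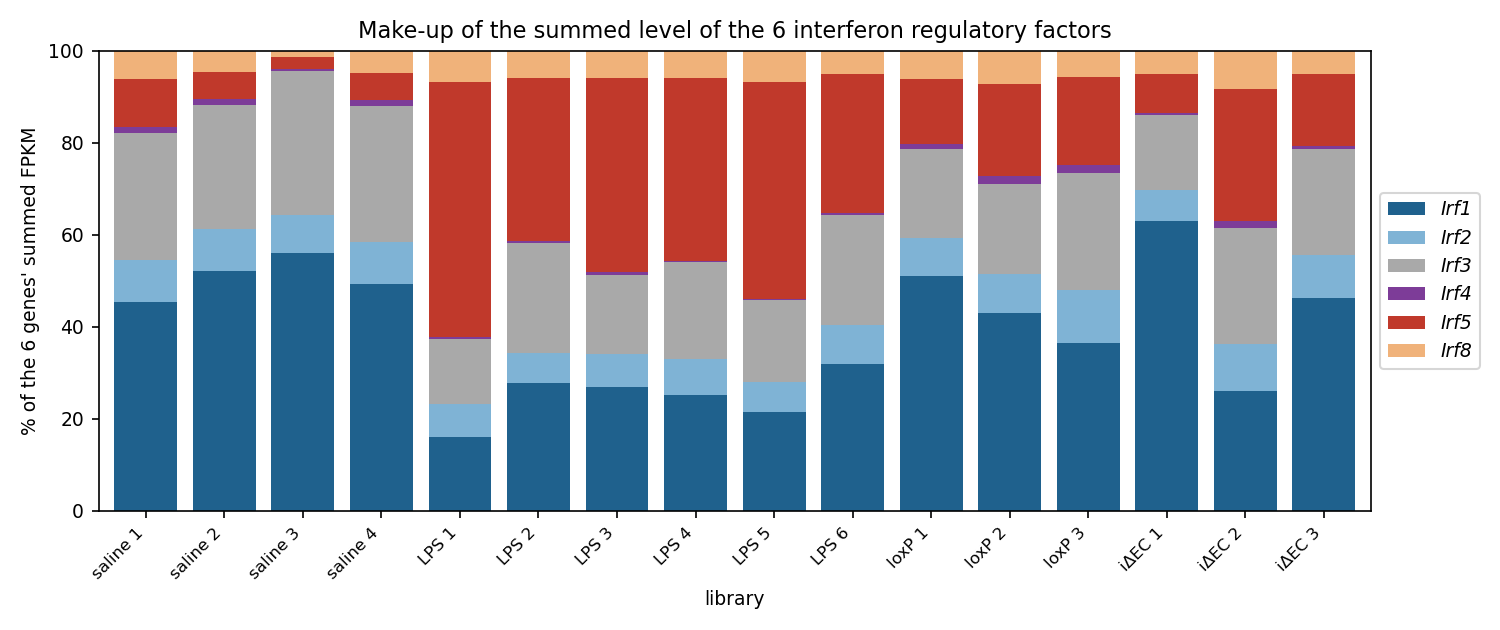
Percent of the summed FPKM of the 6 genes that each gene contributed (stacked bars, 1 bar per library). Irf5 made up 2.51 to 10.5% in saline libraries, 30.3 to 55.5% in LPS libraries and 8.46 to 28.8% in the second experiment.

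Between the genotypes, none of the 6 members passed, and no gene at all passed: 0% of the 14944 genes tested (limma, smallest adjusted p 0.742), with 661 genes at an unadjusted p under 0.05. The same fit on recovered reads with limma-voom also called 0 genes, and so did the fit with the replicate number as a block. With 3 against 3 libraries the exact permutation p cannot go under 0.1. The groups did not overlap for 1 of 6 members, against 10.1% of all genes.

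Irf5 was 21.7, 29.4 and 20.4 FPKM in loxP/loxP libraries 1 to 3 and 15.9, 34.9 and 20.7 FPKM in iΔEC/iΔEC libraries 1 to 3. The means were nearly equal, at 23.8 ± 4.85 and 23.8 ± 9.86 FPKM (SD, n = 3 each), and the 95% interval of the log2 difference, from the fit without a block, ran from -0.75 to 0.64. Irf8 was 9.25, 10.5 and 6.02 FPKM in loxP/loxP and 9.51, 9.96 and 6.49 FPKM in iΔEC/iΔEC. Its log2 difference was 0.02 (95% interval -0.53 to 0.57, from the fit without a block). Both genes overlapped between the genotypes.

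Irf1 was the most uneven member here, at 77.8, 62.9 and 38.8 FPKM in loxP/loxP and 118.5, 31.6 and 60.4 FPKM in iΔEC/iΔEC. The highest and the lowest of the 6 libraries were both iΔEC/iΔEC. The log2 difference of Irf1 was 0.08 with a 95% interval from -1.09 to 1.25, from the fit without a block. Its sign changed when iΔEC/iΔEC library 1 (to -0.39) or loxP/loxP library 3 (to -0.19) was left out. Irf2 lay between 12.1 and 12.6 FPKM in all 6 libraries, with a log2 difference of 0.01 (95% interval -0.18 to 0.21, from the fit without a block). In every same-numbered pair it was slightly higher in iΔEC/iΔEC.

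Irf3 was 29.6, 28.8 and 27.1 FPKM in loxP/loxP and 30.7, 30.4 and 29.9 FPKM in iΔEC/iΔEC. It was the member whose groups did not overlap, and it was higher in iΔEC/iΔEC in 3 of 3 same-numbered pairs. Its log2 difference was 0.09 (limma without a block, adjusted p = 0.963, unpaired exact permutation p = 0.1). The blocked limma fit gave adjusted p = 0.815. The difference was -0.17 under scaling on the endothelial list, which moved the median of all genes to -0.19 (0.03 relative to that median). Irf4 was 1.74, 2.40 and 1.93 FPKM in loxP/loxP and 0.818, 1.91 and 0.890 FPKM in iΔEC/iΔEC. In 2 of the 3 iΔEC/iΔEC libraries it was below all loxP/loxP libraries, and in 3 of 3 same-numbered pairs it was lower in iΔEC/iΔEC. The log2 difference of -0.48 (SE 0.21) did not pass (limma without a block, adjusted p = 0.962, unpaired exact permutation p = 0.2). The blocked limma fit did not pass either (adjusted p = 0.593). The summed B cell and plasma cell markers, of cell types known to express Irf4, were 141.4, 120.8 and 97.5 FPKM in loxP/loxP and 56.3, 116.4 and 54.6 FPKM in iΔEC/iΔEC, with 0 of 7 tested markers past the test, Cd79a or Jchain the most abundant and none at 0. The summed T and NK cell markers were 50.6, 38.5 and 40.3 FPKM in loxP/loxP and 29.5, 30.9 and 30.4 FPKM in iΔEC/iΔEC, without overlap, with 0 of 8 tested markers past the test, Gzma the most abundant and none at 0. The part of either list in the Irf4 values was not tested.

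Across all 4 groups the order of levels can be read only side by side, since the 2 tables were normalized separately and differ in dose and genotype. For Irf5 the order of means was LPS at 67.8 FPKM, loxP/loxP and iΔEC/iΔEC at 23.8 each, and saline at 6.19, and only the neighbouring pair of genotypes overlapped. For Irf8 it was LPS at 9.72, iΔEC/iΔEC at 8.65, loxP/loxP at 8.58 and saline at 4.36 FPKM, where the 3 LPS-treated groups overlapped and saline did not overlap loxP/loxP. For Irf1 it was iΔEC/iΔEC at 70.1, loxP/loxP at 59.9, saline at 54.2 and LPS at 38.9 FPKM, and every neighbouring pair overlapped. For Irf4 it was loxP/loxP at 2.02, iΔEC/iΔEC at 1.21, saline at 1.12 and LPS at 0.596 FPKM, again with every neighbouring pair overlapping. Irf2 and Irf3 stayed within 9.36 to 12.4 and 28.5 to 31.0 FPKM in the group means, and for them only Irf3 in the pair of genotypes did not overlap between neighbours.

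The rest of the family was measured beside the 6 members. Over all genes tested, 29.5% were higher and 23.7% lower after LPS, the shares to set beside each list count below. Of 6 other IRF genes and IRF2-binding proteins, 2 were higher and 1 was lower after LPS, and 3 did not pass, with a median of -0.01. Irf7, the interferon-inducible amplifier of type I interferon, rose from 14.4 ± 5.15 to 155.0 ± 49.6 FPKM (log2 difference 3.35, SE 0.25), close to the size of the Irf5 difference. Irf9, the DNA-binding subunit of the ISGF3 complex, rose by 0.60, a call lost when total reads (adjusted p = 0.10) or quantiles (adjusted p = 0.313) set the limma scale. Irf2bpl, of the IRF2-binding protein genes, was lower at -0.62, which was 0.03 under scaling on the endothelial list, where the median of all genes was 0.53.

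Upstream of IRF3 and IRF5, 16 of 21 receptors, adaptors and kinases were higher and 1 was lower, with a median of 0.94. Cd14, which hands LPS to TLR4, differed by 5.76 (SE 0.86), from 25.9 ± 46.5 FPKM in saline to 497.8 ± 252.0 FPKM in LPS. Saline library 1 was the highest of its group at 95.7 FPKM, and without it the log2 difference was 6.94. Ikbke, the inducible IRF3 kinase IKKε, differed by 4.52 and rose from 0.92 ± 0.309 to 45.6 ± 19.5 FPKM. The endosomal RNA receptor Tlr7 differed by 3.34 and the adaptor Myd88 by 1.98. The lower gene was the viral RNA receptor Tlr3, at -0.61 (limma adjusted p = 0.0249), and 0 genes of the list were lower with no filter, under scaling on the endothelial list or without saline library 2, 3 or 4, and 2 with total reads, quantiles, limma-voom or without saline library 1.

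Among 13 interferon ligands and receptors, the 7 ligands were too low to be tested after LPS. Ifnb1, the interferon-β gene, averaged 0.052 FPKM in LPS and was at 0 in saline. Of the 6 receptor genes tested, 5 were higher and Ifnar1 did not pass, with a median of 0.95. On the main scale the largest differences were those of Il10rb at 1.23, Ifngr1 at 0.99, Ifngr2 at 0.96 and Ifnlr1 at 0.93. With a pseudocount of 0.1 FPKM, Ifnlr1 was at 1.93 and Il10rb at 1.30. With quantiles, Ifngr1 was at 0.36 and Ifngr2 at 0.58, and both still passed.

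Of 13 JAK-STAT transducers and inhibitors, 7 were higher and none was lower, with a median of 0.47. With total reads, 6 were higher and 1 was lower. The phosphatase Ptpn6 differed by 3.77, the feedback inhibitors Socs3 by 2.48 and Socs1 by 1.19, and the ISG15 protease Usp18 by 1.43.

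Of 9 DNA-binding partners of IRF4 and IRF8, 5 were higher and 2 were lower, with a median of 0.68. Spi1, which encodes PU.1, differed by 4.46 and rose from 9.62 ± 6.89 to 212.3 ± 66.6 FPKM. Batf differed by 4.09, Ikzf1 by 2.55 and Batf3 by 2.04 (3.95 with a pseudocount of 0.1 FPKM). The lower pair were Jun at -0.43 and Tcf3 at -0.55, a count that was 1 with no filter, with the replicate block or without saline library 2 or 4 or LPS library 4 or 5, and 0 under scaling on the endothelial list. Spi1 and Ikzf1 are themselves genes of blood cell lineages.

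Of the 19 interferon-γ and IRF1 target genes tested of 20, 7 were higher (14 under scaling on the endothelial list) and 1 was lower, with a median of 0.42. The share higher was not far from the 29.5% of all genes. The chemokine genes Cxcl10 and Cxcl9 differed by 3.66 and 2.09, the PD-L1 gene Cd274 by 2.78 and the class I light chain B2m by 1.28, a limma call that was lost with no filter, with quantiles and with the replicate block, at adjusted p-values up to 0.191. Cxcl9, at 0.08 FPKM in saline, differed by 4.36 with a pseudocount of 0.1 FPKM. The lower gene was Ciita, the class II transactivator, at -1.27 (limma adjusted p = 0.00215). Gbp2, a guanylate-binding protein gene and a classical IRF1 target, was 46.4 ± 17.8 FPKM in saline and 39.9 ± 8.44 in LPS and did not pass. Of 18 type I interferon-stimulated genes, 11 were higher and 1 was lower, with a median of 1.10. The antiviral genes Oas1a, Isg15, Rsad2 and Mx1 differed by 2.65, 2.40, 2.11 and 1.76, and the ubiquitin ligase Trim25 was the lower one at -0.43, a call lost with the replicate block, under scaling on the endothelial list or without saline library 1, LPS library 4 or LPS library 5. In iΔEC/iΔEC over loxP/loxP, 0 genes of any of these 7 lists passed, and the list medians ran from -0.15 to 0.19 beside 0.01 over all genes.

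**Figure D4:**
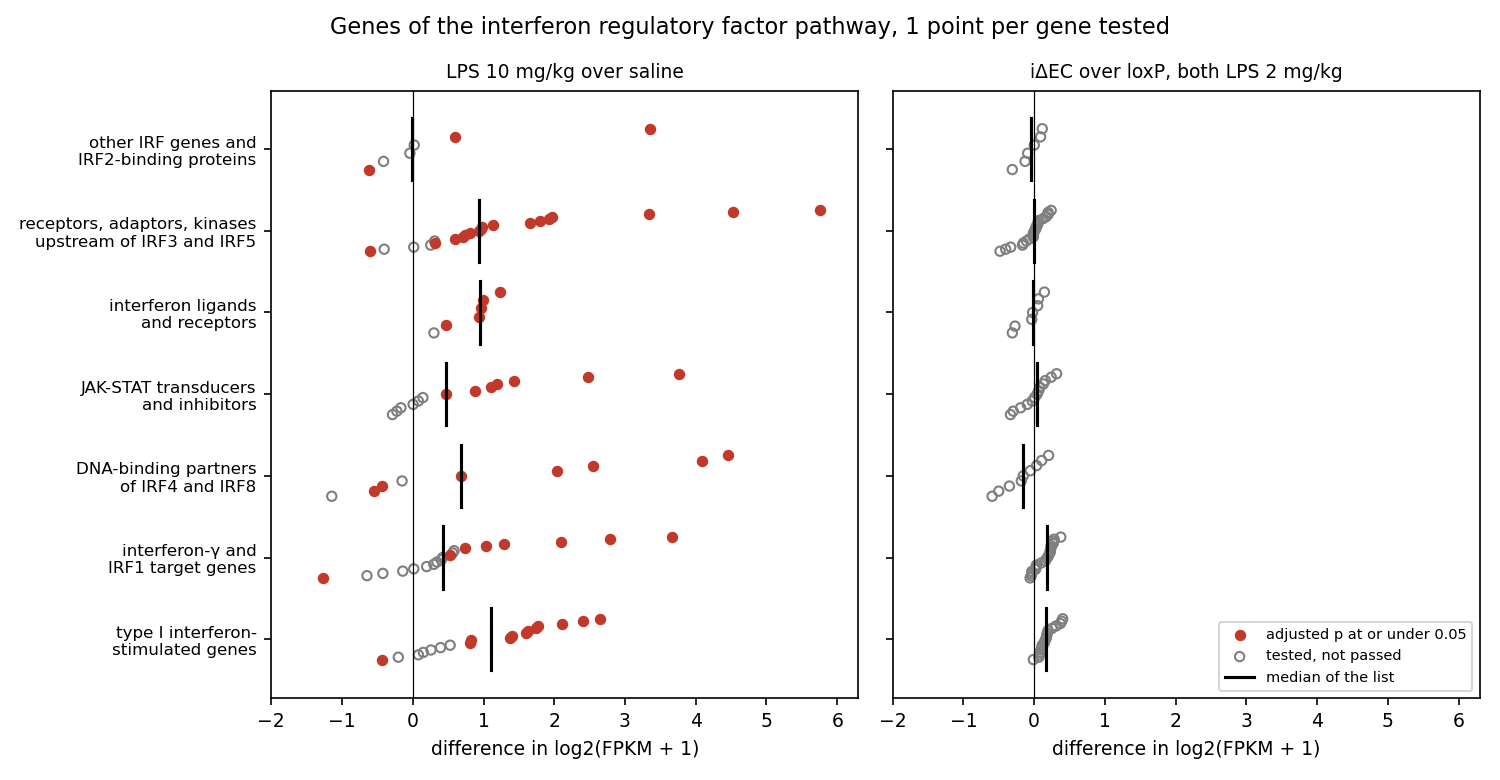
Difference in log2(FPKM + 1) of every tested gene of the 7 pathway lists (1 point per gene, red where the test passed) with the median of each list (vertical bar), for LPS over saline on the left and iΔEC/iΔEC over loxP/loxP on the right. The lists reach up to 5.76 (Cd14) after LPS, and no gene passed between the genotypes.

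Leukocyte markers, and monocyte and macrophage markers, were mostly higher after LPS, as Irf5 and Irf8 were. Of 6 leukocyte markers, 6 were higher after LPS, with a median of 2.83, and their summed level was 227.5, 156.0, 76.5 and 138.0 FPKM in saline libraries 1 to 4 and 641.3 to 1554 FPKM in LPS with a median of 1144. Coro1a was the most abundant leukocyte marker in every library and none was at 0. Of 10 monocyte and macrophage markers, 9 were higher, with a median of 3.47, and their sum was 139.5, 89.2, 143.7 and 74.9 FPKM in saline and 697.7 to 1558 FPKM in LPS with a median of 1124. Chil3 was the most abundant and Marco was at 0 in saline library 1. Csf1r, the macrophage growth factor receptor, rose from 7.13 ± 4.73 to 210.9 ± 58.4 FPKM. LPS library 1 was the highest and LPS library 6 the lowest of its group for the sum of either list and for Irf5 and Irf8 alike. Other libraries did not follow this order. LPS library 2 was above its group's median for the leukocyte sum (1408 FPKM) and below it for Irf5 (60.3 FPKM). Saline library 3 had the highest monocyte and macrophage sum of its group but the lowest leukocyte sum, Irf5 and Irf8.

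Of 8 neutrophil markers, 7 were higher, and their sum was 1369, 67.8, 300.2 and 72.5 FPKM in saline and 1278 to 6599 FPKM in LPS with a median of 2576. S100a9 was the most abundant, and Ly6g and Cxcr1 were at 0 in saline library 4. The part of these cells in the Irf5 and Irf8 values was not tested. The log2 ratio of Irf5 to Ptprc averaged -0.16 ± 0.21 in saline and 0.97 ± 0.25 in LPS (SD, n = 4 and 6), and that of Irf8 to Ptprc averaged -0.70 ± 0.46 and -1.80 ± 0.31. Against Csf1r, Irf5 went from -0.11 ± 0.83 to -1.66 ± 0.11 and Irf8 from -0.65 ± 1.10 to -4.43 ± 0.17. After LPS, Irf5 was thus higher relative to CD45 and lower relative to Csf1r, while Irf8 was lower relative to both. These ratios too were picked after the values were seen.

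Of the 7 B cell and plasma cell markers tested, 5 were lower, with a median of -1.35, a count that was 1 to 3 with no filter, with the replicate block, under scaling on the endothelial list or without saline library 1, 2 or 4 or LPS library 5. The sum of all 8 was 159.3, 211.7, 30.9 and 175.6 FPKM in saline and 23.6 to 72.8 FPKM in LPS with a median of 40.2. Cd79a was the most abundant of them in most libraries, Cd79b in the rest, Tnfrsf17 was at 0 in 8 of 10 libraries and Jchain in LPS library 1. Saline library 3, the lowest of its group for this sum, was also the lowest for Irf4, Irf5 and Irf8. Of 2 dendritic cell markers tested of 7, Clec9a was lower at -0.997 and Zbtb46 did not pass, and the sum of all 7 was 25.0, 48.7, 51.1 and 53.1 FPKM in saline and 15.7 to 33.6 FPKM in LPS. Endothelial markers were also lower for 5 of 10 (10 with quantiles, 3 with the replicate block, 2 under scaling on the endothelial list itself), with a median of -0.58 and a sum of 3446 to 5696 FPKM in saline and 1535 to 3661 FPKM in LPS, Cldn5 being the most abundant. The part of these shifts in the Irf1, Irf4 and Irf8 values was not tested. None of 6 T and NK cell markers tested passed. Of the markers tested, 3 of 10 epithelial and 4 of 9 fibroblast and mural ones were lower, beside 23.7% of all genes, and none was higher. Between the genotypes, 0 markers of any of the 9 lists passed, as no gene did. Differences were negative for 10 of 10 epithelial (median -0.74), 8 of 8 neutrophil and 6 of 6 leukocyte markers. The same held for 7 of 7 B cell and plasma cell and 8 of 8 T and NK cell markers tested. They were positive for 9 of 10 endothelial markers (median 0.29), and the remaining lists were mixed. Markers of a cell type vary together over the same libraries, so these are not independent counts. The highest leukocyte sum was in iΔEC/iΔEC library 2, at 674.1 FPKM. Epithelial sums were 923.8, 1672 and 2909 FPKM in loxP/loxP libraries 1 to 3 and 430.1, 1102 and 848.3 in iΔEC/iΔEC. Endothelial sums, in the same order, were 3148, 2511 and 2634 and 3990, 2803 and 3651. Their part in the member values was not tested.

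**Figure D5:**
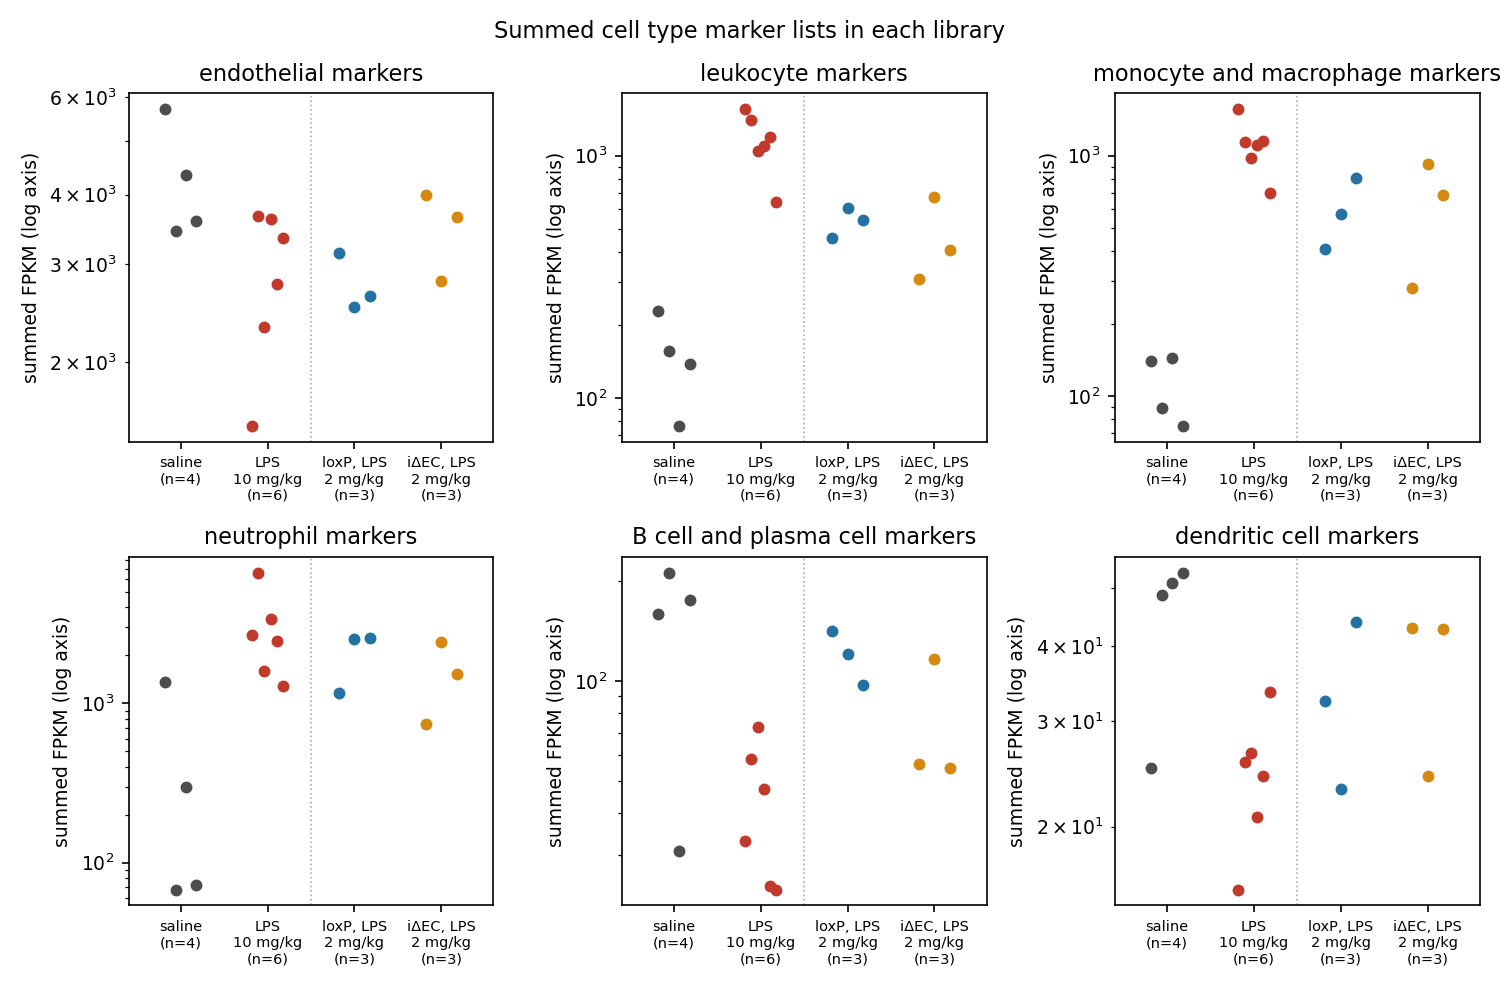
Summed FPKM of 6 cell type marker lists in each library (points, log axis) in the 4 groups. Leukocyte and monocyte and macrophage sums are higher in every LPS library than in every saline library, whereas B cell sums are higher in 3 of 4 saline libraries than in any LPS library.

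The genes whose pattern over the 16 libraries was most like each member were found by the root mean square difference of log2(FPKM + 1) from each gene's mean in its table, among 14192 genes. For Irf5 they were Was at 0.17, Coro1a at 0.18 and Bin2 at 0.19, of which Coro1a is also on the leukocyte list, against 1.34 for the size of Irf5's own pattern. For Irf8 they were Foxp4 at 0.22, Gpr18 at 0.23 and Runx3 at 0.24, against 0.55. For Irf1 they were Wars, the tryptophanyl-tRNA synthetase gene, at 0.14, Apol10b at 0.20 and Gm12185 at 0.22, against 0.46. For Irf4 they were 5830428M24Rik at 0.15, Tent5c at 0.18 and Mppe1 at 0.18, against 0.32. Irf2 (Ncbp3, Krr1 and Skiv2l2, at 0.07 each) and Irf3 (Ankrd54, Stn1 and Tada3, at 0.08 each) varied little themselves, at 0.15 and 0.18.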

How the data were processed

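Pulmonary ECs of 16 mouse libraries were sequenced on an Illumina NovaSeq. The authors aligned reads to GRCm38/mm10 with HISAT2 (2.0.5), counted them per gene with featureCounts (1.5.0-p3) and deposited FPKM values in 1 table per experiment. The annotation release, the strand setting and the handling of multi-mapping reads are not given in the sources used here. Dividing out gene length and library size returned whole reads for 100.0% of values above 0 (tolerance 0.01 reads), so depth is given as recovered reads. FPKM was scaled by median-of-ratios within each table, a scaling the deposited FPKM values already held to within 0.18%.

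Genes averaging 0.5 FPKM or more were tested on log2(FPKM + 1), which understates the change of low genes, with limma (3.58.1, lmFit and eBayes with trend, R 4.3.3) and Benjamini-Hochberg adjustment over all of them. A gene passed at an adjusted p at or under 0.05. Single genes also received a two-sided exact permutation test on the same scale. All 6 members passed the filter on low values in both tables. The fit was also run on counts simulated with the same fixed spread for every gene. That run cannot tell how the fit does at the spread of these replicates. All libraries of the groups compared entered each main test. Replicates differed by more than sampling noise (chi-square of at least 8.0 per gene). Alternatives were other pseudocounts (0.1 FPKM), filters (none, 2 FPKM), scalings (total reads, quantiles, the endothelial list), limma-voom on recovered reads, a replicate block and leaving out each library.

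The labels number the replicates in every group and do not say what a number shares. In the second experiment, the deviations of same-numbered libraries from their group means over genes were correlated (r = 0.248, 0.178 and 0.187). Differently numbered libraries there had r from -0.14 to -0.041, but in the first experiment such libraries reached 0.289. The numbers were therefore treated only as possible pairs, and the blocked fit changed no call in the second experiment.

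The members and lists were chosen with earlier results of these data known. Named genes were the 6 members, up to 4 genes per pathway list with the largest absolute difference among those passing after LPS plus any needed to explain a count, the most abundant marker genes with Pecam1, Cdh5 and Ptprc, Fgfr1, and the 3 genes most like each member. Tlr3, Trim25, Ciita, Jun, Tcf3, Ifnar1, Ifnb1, Gbp2, Csf1r and the overlapping genes were named after their values were seen. Of the listed symbols, 3 were found under older names. Promoters were matched for 6 of 6 members in a RefSeq table of GRCm38.p6, and protein sequences were not used here.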

Additional observations from a re-analysis of the deposited data

Results flagged for a closer look

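Of 30 group values of the members and marker lists that were examined for a library far from its group, 3 stood apart by Dixon's criterion, where chance gives 1 in 20, or 1.5. Irf8 in saline library 3 was 1.67 FPKM, while the other saline libraries lay between 5.07 and 5.53 FPKM. The summed B cell and plasma cell markers of the same library were 30.9 FPKM, while the others lay between 159.3 and 211.7 FPKM. The summed dendritic cell markers of saline library 1, the shallowest library, were 25.0 FPKM, while the other saline libraries lay between 48.7 and 53.1 FPKM.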

How the results depend on the processing

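Irf5 (log2 difference 2.99 to 3.88) and Irf8 (0.74 to 1.62) passed after LPS under every alternative run. The number of members higher was 2, but 4 under scaling on the endothelial list (Irf2 at 0.89 and Irf3 at 0.68 added), and 2 to 3 with 1 library left out. The number lower was 1, but 0 with no filter, limma-voom, the replicate block, a log2 difference of at least 1 or scaling on the endothelial list, 2 with total reads (Irf4 added), and 0 to 1 with 1 library left out. Irf1 had adjusted p = 0.0948 with no filter and 0.0503 with limma-voom. Irf4 had no value at a filter of 2 FPKM.

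Over all genes, 4399 were higher and 3529 lower (55.5% of calls higher). This became 6864 and 874 (88.7%) under scaling on the endothelial list, 42.9% with total reads, 45.4% with quantiles, and 1768 and 1011 with a log2 difference of at least 1. The median of all genes was 0.53 under scaling on the endothelial list and -0.14 with total reads. Without 1 library, 3820 to 4624 genes were higher and 2893 to 3751 lower. These reversals were seen after LPS, and the cause was not tested: Irf1 0.22 and Irf2bpl 0.034 under scaling on the endothelial list, and Irf3 -0.18 with total reads, -0.40 with quantiles, and -0.11 to 0.10 with 1 library left out. Between the genotypes, where no gene passed under any alternative, scaling on the endothelial list moved the median of all genes to -0.19. Relative to it, Irf1 was 0.02, Irf3 0.03, Irf2 -0.03 and Irf8 -0.02. Before that shift is taken off, signs changed for Irf2 (-0.048 total reads, -0.0072 quantiles, -0.23 endothelial list), Irf8 (-0.039 total reads, -0.21 endothelial list), Irf1 (-0.18 endothelial list) and Irf3 (-0.17 endothelial list), and with 1 library left out the values ran from -0.39 to 0.55 for Irf1, -0.36 to 0.19 for Irf5 and -0.19 to 0.20 for Irf8.

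Saline and LPS libraries of the same number did not deviate together (r = -0.209 to 0.0972), so they share only a number. With the replicate block (LPS libraries 5 and 6 dropped), 3435 genes were higher and 2560 lower, and Irf1 was at -0.44 (limma adjusted p = 0.0592). The pathway genes named for the largest absolute differences of their lists had 485 fits under alternatives. Of these, 479 kept direction and call, 5 lost the call and 1 reversed. Pathway genes named after their values were seen, such as Tlr3, Trim25, Ciita, Jun and Tcf3, were not among these fits. Of 1024 counts of list genes higher or lower, 59 moved by more than 1.5 times. The other IRF genes had 1 higher and 2 lower with total reads.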
